A study of Mus musculus with 7 samples.

Results

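The genes described here encode G protein coupled receptors through which hormones, nerves and nutrients adjust insulin secretion. The set was fixed by gene symbol as the incretin and related receptors Glp1r, Gipr, Gcgr, Adcyap1r1 and Vipr1, the inhibitory receptors Adra2a and Sstr3, and the receptors Chrm3, Ffar1 and Casr. Probe sets carrying these symbols were found for 9 of the 10 genes, on 10 of the 35556 probe sets of the array, and Adra2a was not analysed here. The comparison runs over 19938 genes with a single symbol. At postnatal day 25 beta cells were taken from each mouse on its own, and their RNA was hybridised to 1 Affymetrix array per mouse. The 3 weaned mice had been taken off milk early, at postnatal day 18, and the 4 suckling mice had not. All 7 mice were on the ICR background and carried insulin-Cre and the Rosa26-LSL-YFP reporter, so that cells in which the insulin promoter had driven Cre were fluorescent. Between 2000 and 6000 fluorescent cells were sorted from each mouse.

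Beta cells release insulin when glucose metabolism raises calcium, and these receptors tune how much is released at a given glucose level. Receptors coupled to the stimulatory G protein raise cyclic AMP, which amplifies release, and the incretin hormones GLP-1 and GIP of the gut act in this way after a meal. Receptors coupled to the inhibitory G protein lower cyclic AMP and restrain release, while receptors coupled to Gq activate phospholipase C, which mobilises stored calcium. Milk is rich in fat and chow in carbohydrate, so weaning changes the nutrients that reach the islet.

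Levels are given as log2 of the deposited intensity, and differences are weaned minus suckling on that scale with a standard error (SE) and a 95% interval from limma. Levels of different genes cannot be set against each other, since probe sets differ in how brightly they read. As a background level served 1027 olfactory receptor genes, of which 95% had a mean below 3.27 and 99% below 4.03. For the same reason a gene that reads below this level may still be expressed. Genes called at background are described by their reading only. The Y-linked genes Eif2s3y, Uty and Kdm5d and the female transcript Xist read 1.80 to 3.15 on arrays without their signal. Weaned replicate 12 was low for all 4, at 2.52 for Xist and 1.80, 2.05 and 2.92 for Eif2s3y, Uty and Kdm5d, whereas each of the other 6 arrays had signal for either Xist or the Y-linked genes. Without weaned replicate 12 each of the 9 receptors kept its direction and none passed (lowest adjusted p = 0.621, limma). All 9 receptors had both group means above 3.27, although those of Adcyap1r1 stayed below 4.03. The sorted cells gave signal for 11 of 11 measured beta-cell markers, and the mean of the list was 9.41 to 9.51 in weaned mice and 9.40 to 9.51 in suckling mice. Markers of other islet cells were above background too, 7 of 7 for alpha cells, 6 of 8 for delta cells and 4 of 5 for PP cells, and how much of each receptor's signal came from such cells was not tested. The mean of 15 acinar markers was 3.89, 3.89 and 5.74 on weaned replicates 4, 5 and 12. On suckling replicates 2, 9, 11 and 12 it was 7.43, 7.19, 4.21 and 4.86. In bulk RNA, fewer cells of a type and less RNA per cell cannot be told apart. The array descriptions carry 1 code on the weaned and another on the suckling arrays, so a batch behind these codes could not be told apart from weaning.

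The promoters of Glp1r and Casr show how unlike these receptor genes can be in sequence at their starts. The windows are from RefSeq on build GRCm38.p6, 250 bases before to 50 after the annotated start, and capitals mark GC boxes (GGGCGG on either strand, some of them overlapping). The window of Glp1r lies at chr17:30901617-30901916 on the plus strand and that of Casr at chr16:36562085-36562384 on the minus strand.
Glp1r: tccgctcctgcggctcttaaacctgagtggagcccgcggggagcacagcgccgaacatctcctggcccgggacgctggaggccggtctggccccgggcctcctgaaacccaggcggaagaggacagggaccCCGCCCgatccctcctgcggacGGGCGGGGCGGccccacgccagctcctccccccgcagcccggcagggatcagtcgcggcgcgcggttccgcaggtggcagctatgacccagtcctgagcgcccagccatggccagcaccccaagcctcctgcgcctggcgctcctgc
Casr: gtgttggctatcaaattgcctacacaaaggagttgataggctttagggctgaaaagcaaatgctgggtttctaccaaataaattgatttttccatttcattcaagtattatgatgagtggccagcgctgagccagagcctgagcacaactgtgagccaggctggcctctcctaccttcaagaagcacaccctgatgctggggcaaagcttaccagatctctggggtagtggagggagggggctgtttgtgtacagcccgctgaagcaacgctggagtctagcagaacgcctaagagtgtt
The Glp1r window is 73.7% G or C and holds 3 GC boxes, while the Casr window is 49.7% G or C and holds 0. Of the 8 receptors with a window in the table, 4 held a GC box, namely Glp1r, Gcgr, Adcyap1r1 and Vipr1, all of the secretin family. Gipr, of the same family, had no window and was not searched. A GC box was found in 35.7% of the 32851 promoter windows of the table. The core TGACG of the cyclic AMP response element, searched on both strands, was found for 2 of the 8, in Vipr1 and in 1 of the 2 windows of Sstr3, and in 20.8% of all windows. The full element TGACGTCA was found for 0 of the 8 receptors and in 1.79% of all windows. A match of these letters is a description of the sequence and was not set against the expression values.

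None of the 9 receptors passed an adjusted p of 0.05 in weaned against suckling mice, and no pair of groups was free of overlap. Over all genes 3 of 19938, or 0.015%, passed by limma with Benjamini-Hochberg adjustment. At an unadjusted p under 0.05 there were 0 of the 9 receptors, against 7.58% of all genes. The groups did not overlap for 0 of the 9, against 7.32% of all genes. Adjusted p ran from 0.669 to 0.977 over the 9 receptors (limma). Each of the 9 intervals lay between 0.622-fold and 1.57-fold, so a 2-fold change in either direction is outside all of them. Differences inside an interval could not be told from 0 with 3 and 4 arrays. RMA, which made the deposited values, shrinks differences of dim probe sets, so these bounds apply to the deposited scale.

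**Figure D1:**
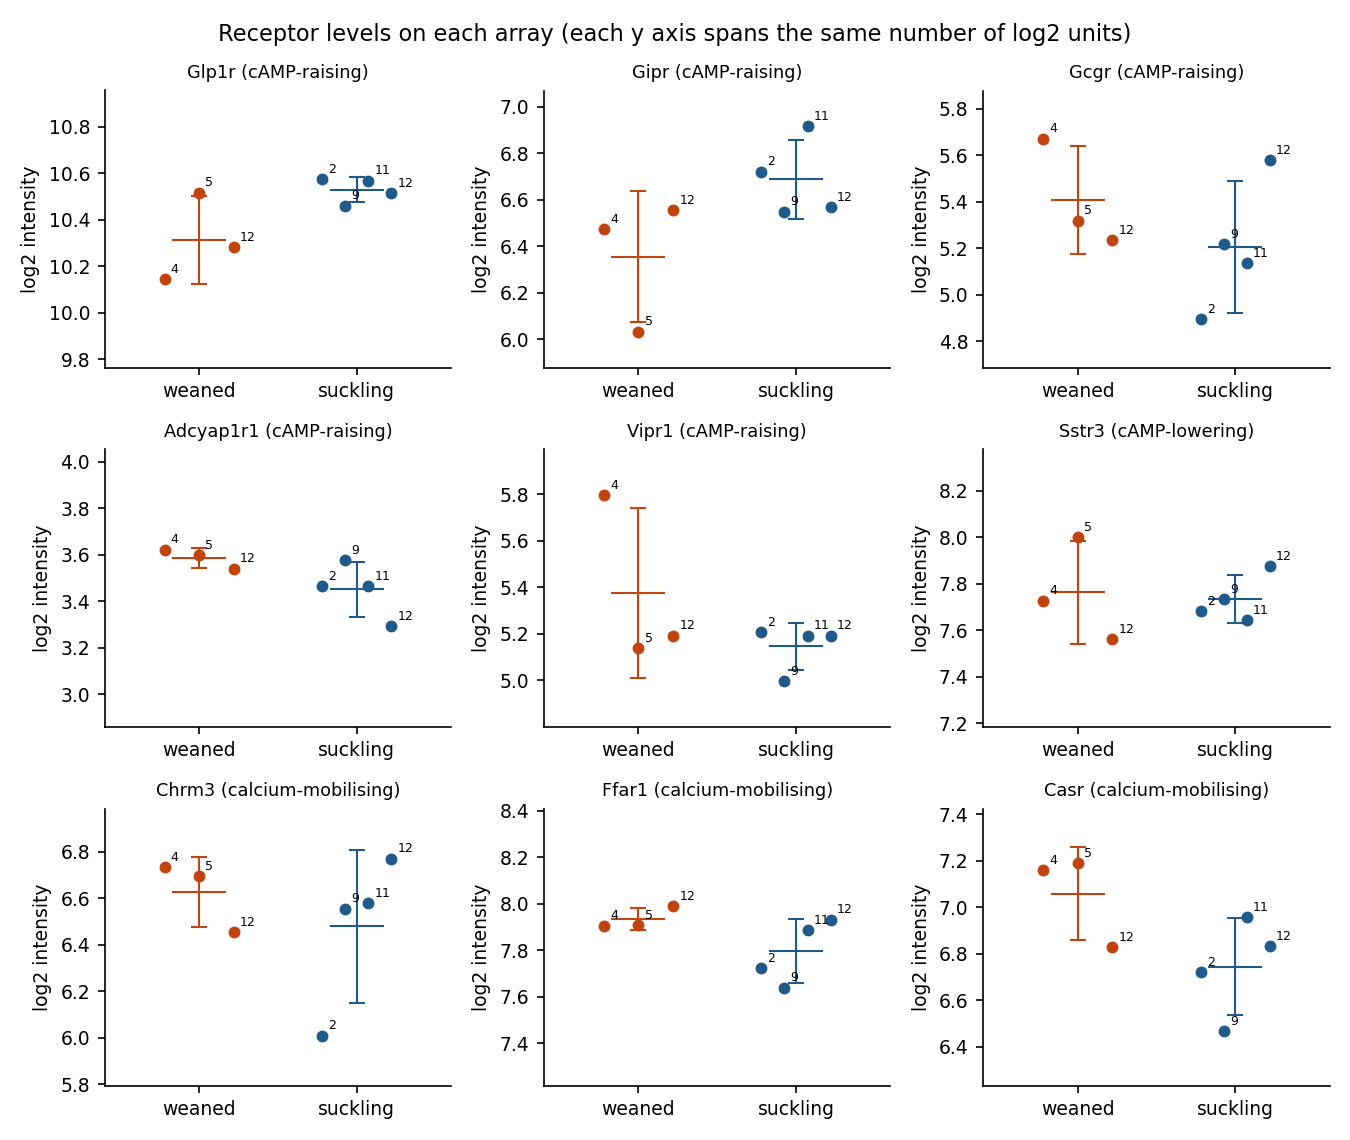
Log2 intensity of the 9 receptors on each array, weaned left of suckling, with replicate numbers beside the points and bars for the mean and SD (n = 3 weaned, n = 4 suckling). Each vertical axis spans the same number of log2 units but starts at a level of its own, and in every panel the 2 groups overlap.

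The receptors of the 2 incretin hormones were the only ones of the 9 with a lower mean in weaned mice. Glp1r, the receptor of GLP-1 (probe set 10443690), read 10.14, 10.52 and 10.28 log2 units on weaned replicates 4, 5 and 12, against 10.58, 10.46, 10.57 and 10.51 on suckling replicates 2, 9, 11 and 12. Weaned replicates 4 and 12 lie below every suckling array and weaned replicate 5 among them. The means were 10.3 ± 0.19 in weaned and 10.5 ± 0.054 in suckling mice (SD, n = 3 and 4). The difference was -0.22 (SE 0.12, interval -0.48 to 0.05, adjusted p = 0.716 by limma), a fold of 0.861. Without weaned replicate 5 it was -0.32, and without weaned replicate 4 it was -0.13.

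Gipr, the receptor of GIP (probe set 10560443), read 6.47, 6.03 and 6.56 log2 units on the weaned arrays, against 6.72, 6.55, 6.91 and 6.57 on the suckling arrays. Weaned replicate 12 lies just above suckling replicate 9, which is the whole of the overlap. The means were 6.35 ± 0.28 in weaned and 6.69 ± 0.17 in suckling mice (SD, n = 3 and 4). The difference was -0.33 (SE 0.16, interval -0.69 to 0.02), and its adjusted p of 0.669 was the lowest of the 9 receptors (limma). Leaving out weaned replicate 5, the lowest array, gave -0.17, and leaving out weaned replicate 12 gave -0.44. The 2 incretin receptors were not lowest on the same weaned array, since Glp1r was lowest on replicate 4 and Gipr on replicate 5. With the acinar marker mean as a covariate the differences were -0.23 for Glp1r and -0.34 for Gipr.

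Gcgr, the glucagon receptor through which alpha cells act on beta cells (probe set 10383409), read 5.67, 5.32 and 5.23 on the weaned arrays, against 4.89, 5.22, 5.14 and 5.58 on the suckling arrays. The difference was 0.20 (SE 0.18, interval -0.19 to 0.60, adjusted p = 0.837 by limma). Suckling replicate 2, the lowest array, has the most acinar signal. Without suckling replicates 2 and 9 the Gcgr difference was 0.050 and with the acinar covariate 0.055. Leaving out weaned replicate 4 alone gave 0.069 and suckling replicate 2 alone 0.097, whereas it was 0.33 without suckling replicate 12 and 0.29 without weaned replicate 12.

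Adcyap1r1, the receptor of the islet neuropeptide PACAP (probe set 10538482), read 3.62, 3.60 and 3.54 on the weaned arrays, against 3.47, 3.58, 3.47 and 3.29 on the suckling arrays. These levels are close to background, and the difference was 0.14 (SE 0.11, adjusted p = 0.818 by limma). It was 0.083 without suckling replicate 12, the lowest array, and 0.056 with an offset of 16 added before the log, against 0.21 without suckling replicates 2 and 9 and 0.17 with the acinar covariate. Vipr1, a receptor shared by VIP and PACAP, is the one gene of the 9 with 2 probe sets. The brighter (10590381) read 5.80, 5.14 and 5.19 on the weaned arrays, against 5.21, 5.00, 5.19 and 5.19 on the suckling arrays. The weaned mean is set by replicate 4, and the difference of 0.23 (SE 0.17, adjusted p = 0.793 by limma) became 0.018 without it, against 0.35 without weaned replicate 5. It was 0.18 without suckling replicates 2 and 9, 0.15 with the acinar covariate and 0.13 for the mean of both probe sets. The deposited values of this probe set are identical on 3 arrays, weaned replicate 12 and suckling replicates 11 and 12. The dimmer Vipr1 probe set (10590365) read 5.43, 4.52 and 4.24 on the weaned arrays, against 4.88, 4.33, 4.92 and 4.64 on the suckling arrays. It too was highest on weaned replicate 4, and its difference was 0.04 (SE 0.27).

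Sstr3, a somatostatin receptor that lowers cyclic AMP (probe set 10430365), was the only one of the 9 receptors listed here under the inhibitory G protein. It read 7.73, 8.0 and 7.56 on the weaned arrays, against 7.68, 7.73, 7.64 and 7.88 on the suckling arrays. The weaned arrays span the suckling ones. The difference was 0.03 (SE 0.13, interval -0.27 to 0.32, adjusted p = 0.977 by limma), and it turned to -0.089 with weaned replicate 5 left out, -0.00071 with suckling replicate 11 left out and -0.033 with the acinar covariate.

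The 3 receptors that act through Gq all had higher means in weaned mice. Casr, the receptor that senses extracellular calcium (probe set 10439303), read 7.16, 7.19 and 6.83 log2 units on the weaned arrays, against 6.72, 6.47, 6.96 and 6.83 on the suckling arrays. Weaned replicates 4 and 5 lie above every suckling array, and weaned replicate 12 falls among them. The means were 7.06 ± 0.20 in weaned and 6.74 ± 0.21 in suckling mice (SD, n = 3 and 4), a difference of 0.31 (SE 0.15, interval -0.02 to 0.65, adjusted p = 0.672 by limma) and a fold of 1.24. The lowest Casr arrays, suckling replicates 9 and 2, are those with the most acinar signal. Without both the difference was 0.16, and with the acinar marker mean as a covariate it was 0.14.

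Ffar1, the receptor of long-chain fatty acids that enhances glucose-stimulated insulin release (probe set 10562130), read 7.91, 7.91 and 7.99 on the weaned arrays, against 7.72, 7.64, 7.89 and 7.93 on the suckling arrays. Suckling replicates 11 and 12 lie close to the weaned arrays, and suckling replicates 2 and 9 lie below. The difference was 0.14 (SE 0.11, interval -0.12 to 0.40, adjusted p = 0.821 by limma). It was 0.025 without suckling replicates 2 and 9, the lowest Ffar1 arrays, whose removal makes it smaller in any case. With the acinar covariate it was 0.069 and without suckling replicate 9 alone 0.088. Without suckling replicate 11 it was 0.17 and without suckling replicate 12 0.19. Chrm3, the muscarinic receptor through which acetylcholine from parasympathetic nerves stimulates beta cells (probe set 10407591), read 6.73, 6.69 and 6.45 on the weaned arrays, against 6.01, 6.56, 6.58 and 6.77 on the suckling arrays. Suckling replicate 2 is below every other array. The Chrm3 difference of 0.15 (SE 0.18, adjusted p = 0.882 by limma) became -0.0081 without that array, -0.048 without suckling replicates 2 and 9 and -0.047 with the acinar covariate. It was 0.095 without weaned replicate 4, 0.23 without weaned replicate 12 and 0.25 without suckling replicate 12.

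**Figure D2:**
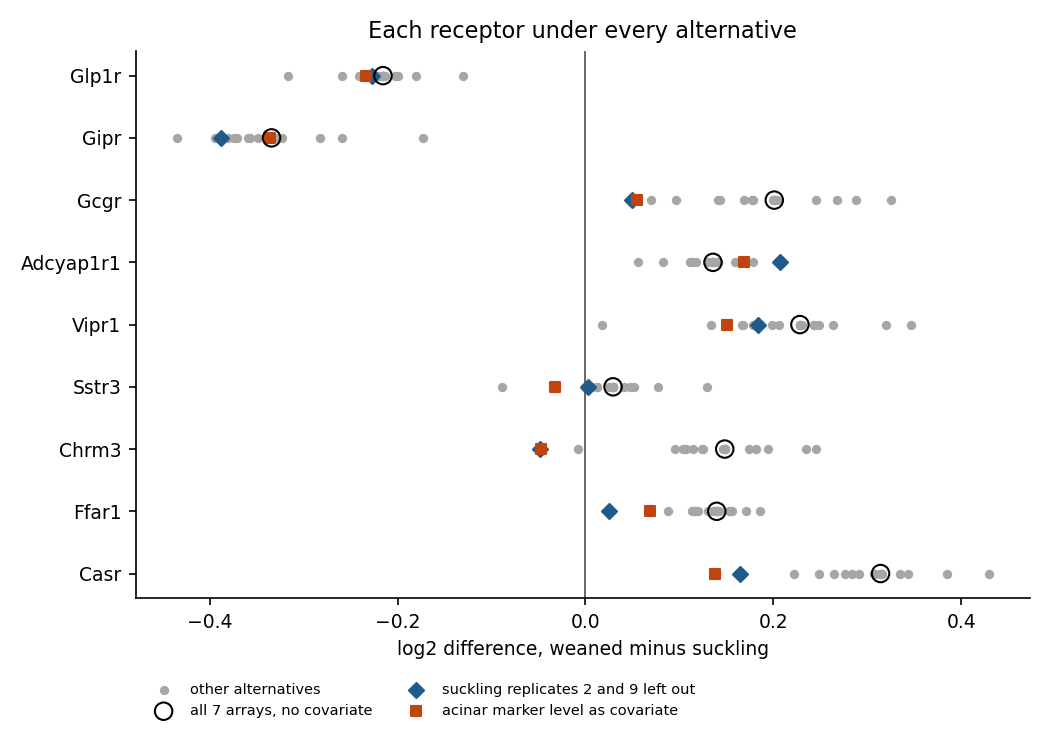
Log2 difference, weaned minus suckling, of the 9 receptors with all 7 arrays (open circles), without suckling replicates 2 and 9 (diamonds), with the acinar marker mean as a covariate (squares) and under the other alternatives (grey points). Glp1r and Gipr stay left of 0 in each case, and the 2 acinar alternatives place them, like Adcyap1r1, slightly farther from 0. The same alternatives place Gcgr, Vipr1, Sstr3, Chrm3, Ffar1 and Casr closer to or past 0.

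By direction, 7 of the 9 receptors had a higher mean in weaned mice, where 50.1% of all genes did. Their median difference was 0.14, with 0.00047 over all genes and 0.038 over the 9969 genes of above-median level. Each receptor was listed under a single coupling, and any other coupling it may have was not considered. By that listing, 3 of 5 cyclic AMP raising receptors, the 1 cyclic AMP lowering receptor and 3 of 3 Gq receptors had higher means. The median of the 9 was 0.025 without suckling replicates 2 and 9 and 0.055 with the acinar covariate. Suckling replicate 9 was the lowest array for Casr, Ffar1 and Vipr1, and suckling replicate 2 for Gcgr and Chrm3. Leaving out both raises those suckling means in any case. For Glp1r, suckling replicate 2 was the highest array. All 15 acinar markers had a lower mean in weaned mice (median difference -1.51), so the acinar covariate partly follows weaning. On 7 arrays a fit with it cannot fully separate acinar RNA from weaning. Beyond these fits the part of acinar RNA in the receptor differences was not tested. Centring each array on its median turned no receptor's direction. It turned the split of all genes at an unadjusted p under 0.05 to 721 higher and 812 lower, against 875 higher and 637 lower without centring.

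Genes whose pattern over the arrays was most like that of each incretin receptor were searched among 9968 genes of above-median level, by Pearson correlation over the 7 arrays. For Glp1r the closest were Gm5901 (r = 0.964, Spearman rho 0.929), Irx2, a transcription factor of alpha cells (r = 0.955, rho 0.893), and Rubcn, a regulator of autophagy (r = 0.955, rho 0.964). For Gipr they were Rnf181 (r = 0.981, rho 0.929), Klhdc3 (r = 0.965, rho 0.679) and Smim10l2a (r = 0.959, rho 0.893). No gene was among the 3 closest to both. These are the highest of 9968 correlations over few arrays and are given as a description, without a p.

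The wider pathway was followed in 8 lists of other receptors, G proteins, regulators, ligands and effectors. Of 206 measured genes, 93 had a higher and 113 a lower mean in weaned mice, with a median difference of -0.019. None passed over all genes by limma, and 11, or 5.34%, had an unadjusted p under 0.05, 8 higher and 3 lower, against 4.39% and 3.19% of all genes. The groups did not overlap for 13 of the 206, or 6.31%. These shares are near or below those of all genes.

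**Figure D3:**
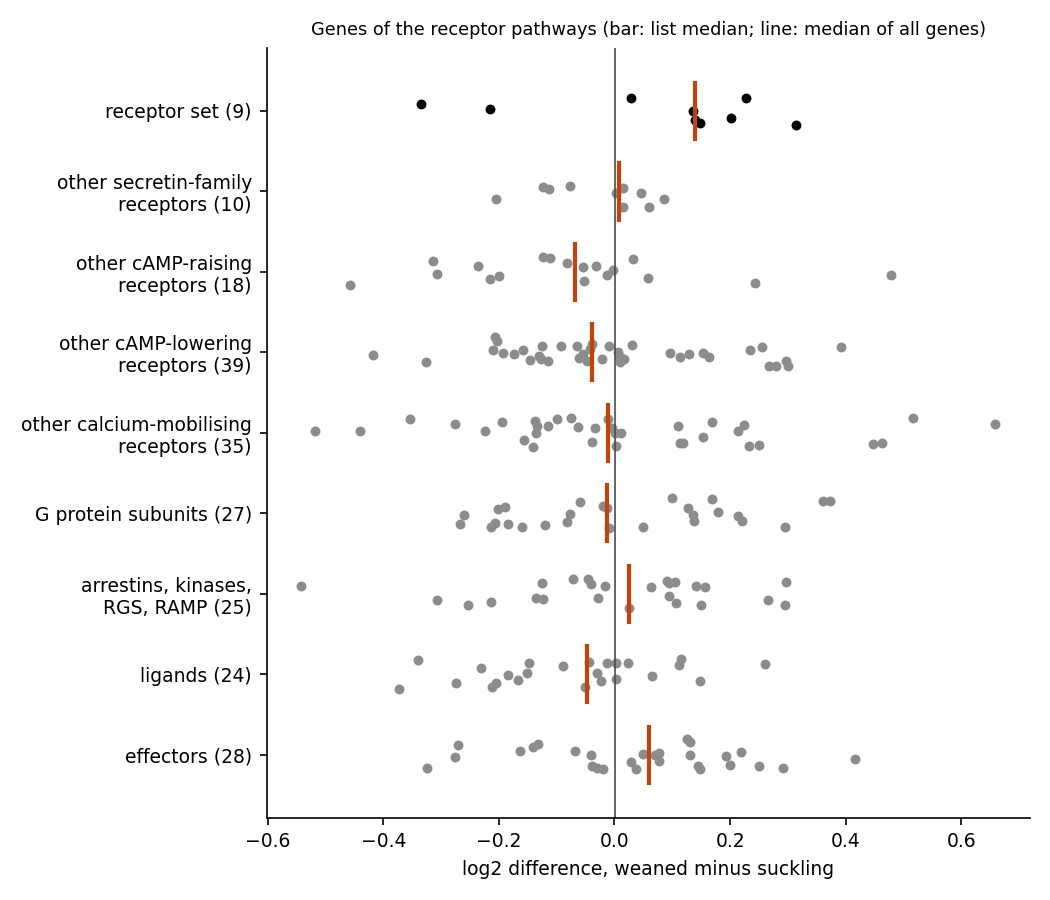
Log2 differences, weaned minus suckling, of the 9 receptors and of the genes of 8 pathway lists, 1 point per gene, with the number of genes in brackets and a bar at each list's median. The list medians lie between -0.068 and 0.061, while that of the 9 receptors is 0.14.

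Among other receptors that raise cyclic AMP, 4 of 18 had a higher and 14 a lower mean in weaned mice (median -0.068), and 9 were above background. Gpr119, a receptor of lipid amides that raises cyclic AMP in beta cells, had the smallest p of that list. It read 8.26, 8.25 and 8.47 log2 units on the weaned arrays, against 7.76, 8.10, 7.79 and 7.75 on the suckling arrays. Every weaned array is above every suckling array. The means were 8.33 ± 0.13 in weaned and 7.85 ± 0.17 in suckling mice (SD, n = 3 and 4), a difference of 0.48 (SE 0.13, interval 0.19 to 0.77) and a fold of 1.39. It missed the threshold over all genes (adjusted p = 0.493, unadjusted p = 0.0045, limma). The difference was 0.56 without suckling replicates 2 and 9 and 0.57 with the acinar covariate. Gpr6, an orphan receptor with means of 3.71 in weaned and 4.02 in suckling mice, differed by -0.31 (SE 0.15; -0.47 without suckling replicates 2 and 9, -0.15 with the offset of 16) at a level within the upper tail of the olfactory receptor genes.

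Other receptors of the secretin family, the family of Glp1r, Gipr and Gcgr, were mostly dim, with 4 of 10 above background. The list had 6 higher and 4 lower means and a median of 0.0082. Pth1r, a parathyroid hormone receptor, read 3.24, 3.29 and 3.34 on the weaned arrays and 3.35, 3.47, 3.42 and 3.38 on the suckling arrays, a difference of -0.11 (SE 0.10; -0.044 with the offset of 16) at a level near background. Calcr, the calcitonin receptor, was at background in both groups. Of 39 other receptors that lower cyclic AMP, 17 had a higher and 22 a lower mean (median -0.039), 18 were above background and 0 had an unadjusted p under 0.05 (limma). Of the opioid-family receptor genes with the smallest p there, Oprk1 was at background in both groups, and Oprl1 averaged 3.45 in weaned mice and was at background, at 3.15, in suckling mice.

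Of 35 other receptors coupled to Gq, 16 had a higher and 19 a lower mean (median -0.011), and 16 were above background. At an unadjusted p under 0.05 there were 4, or 11.4%, all higher in weaned mice (limma), against 4.39% higher and 7.58% in either direction over all genes, and none of them passed over all genes. Tacr3, the neurokinin B receptor, read 4.21, 4.38 and 3.90 on the weaned arrays, against 3.54, 3.68, 3.48 and 3.33 on the suckling arrays. The groups do not overlap, but the suckling levels lie within the upper tail of the olfactory receptor genes. The difference was 0.66 (SE 0.14, adjusted p = 0.343 by limma), a fold of 1.58, against 0.31 with the offset of 16. Avpr1a, a vasopressin receptor, was at background in both groups. Ffar2, a receptor of short-chain fatty acids, averaged 6.78 in weaned and 6.33 in suckling mice (difference 0.45, SE 0.15). Tacr1, the substance P receptor, averaged 3.57 in weaned mice and was at background, at 3.11, in suckling mice. Ffar2 and Tacr1 were named after their values were seen, since they complete the 4.

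**Figure D4:**
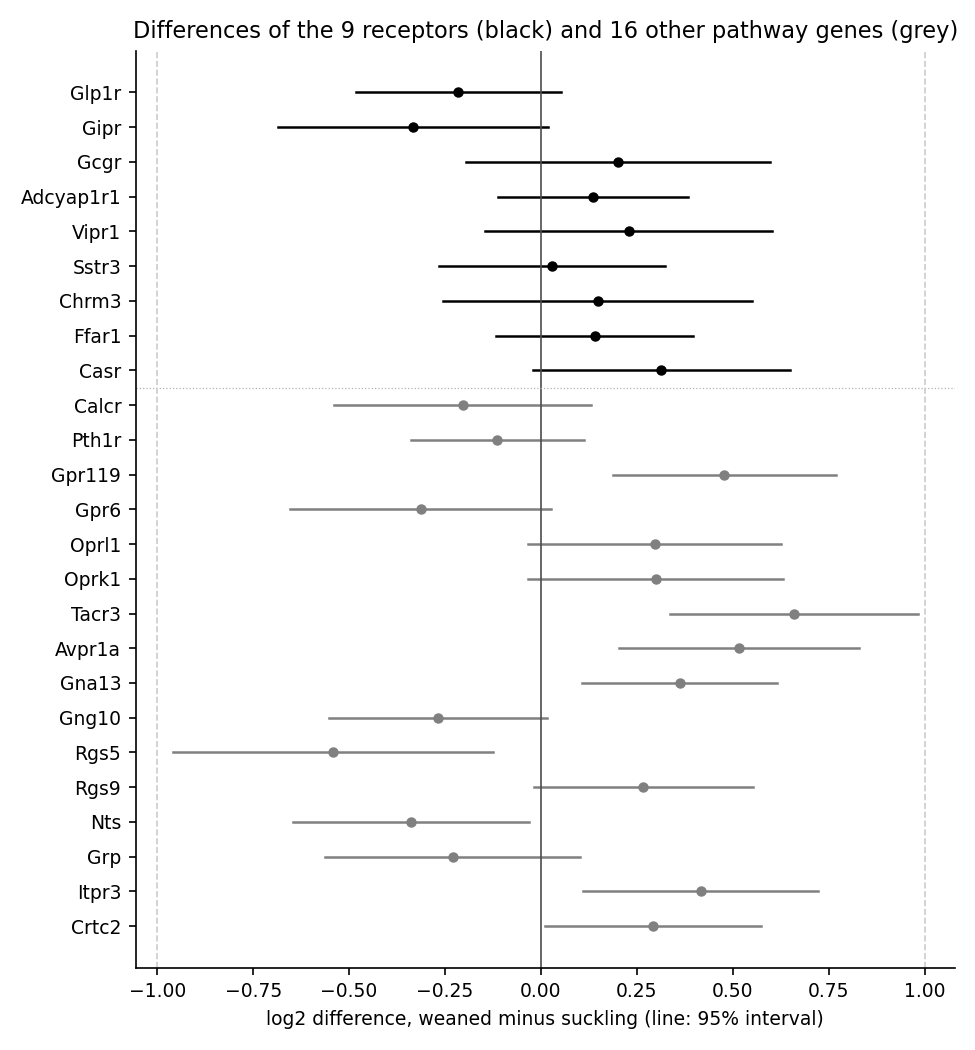
Log2 difference, weaned minus suckling, with its 95% interval for the 9 receptors (black) and for the 16 other genes taken from the pathway lists by smallest p (grey), with dashed lines at a 2-fold difference. All 9 receptor intervals cross 0 and none reaches a dashed line.

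Downstream of the receptors, 12 of 27 G protein subunits had a higher and 15 a lower mean (median -0.012). Gna13, which encodes a G protein alpha subunit of the G12 class, read 8.03, 8.23 and 8.20 on the weaned arrays, against 7.66, 7.92, 7.79 and 7.80 on the suckling arrays. The groups do not overlap, and the difference was 0.36 (SE 0.11, adjusted p = 0.552 by limma). Gng10, a gamma subunit, averaged 6.78 in weaned and 7.05 in suckling mice (difference -0.27, SE 0.13), and the difference was -0.17 without suckling replicates 2 and 9 and -0.15 with the acinar covariate. Of 25 arrestins, receptor kinases, RGS proteins and receptor partners, 13 had a higher and 12 a lower mean (median 0.025). Rgs9, which speeds the shut-off of inhibitory G proteins, averaged 6.36 in weaned and 6.09 in suckling mice (difference 0.27, SE 0.13), and its groups do not overlap. The Rgs9 difference was 0.18 without suckling replicates 2 and 9 and 0.17 with the acinar covariate. Rgs5, which is also a marker of pericytes, averaged 2.71 in weaned and 3.26 in suckling mice, both below the background cutoff of 3.27. The suckling mean was only just below it, and suckling replicates 2 and 9 read 3.39 and 3.69. The Rgs5 groups do not overlap, and the difference was -0.54 (SE 0.19). It was -0.26 without suckling replicates 2 and 9 and -0.19 with the offset of 16.

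Of 28 effectors of cyclic AMP and calcium signalling, 17 had a higher and 11 a lower mean (median 0.061), and 2 higher and 1 lower had an unadjusted p under 0.05 (limma), or 10.7% against 7.58% of all genes. Itpr3, a calcium release channel opened by the phospholipase C product IP3, read 5.90, 6.11 and 5.69 on the weaned arrays, against 5.42, 5.37, 5.46 and 5.69 on the suckling arrays. Its groups meet at 5.69 without overlapping, and the difference was 0.42 (SE 0.14, adjusted p = 0.567 by limma), against 0.33 without suckling replicates 2 and 9. Crtc2, a coactivator of the cyclic AMP responsive factor CREB, averaged 7.25 in weaned and 6.96 in suckling mice (difference 0.29, SE 0.13).

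Of 24 ligand genes, 8 had a higher and 16 a lower mean in weaned mice (median -0.047). Gcg, whose product is cut to glucagon or GLP-1, averaged 11.9 ± 0.32 in weaned and 12.1 ± 0.16 in suckling mice (SD, n = 3 and 4), a difference of -0.18 (SE 0.16). Sst, which encodes the ligand of Sstr3, averaged 11.8 ± 0.39 in weaned and 12.0 ± 0.038 in suckling mice, a difference of -0.21 (SE 0.17). Both lie outside the rule for named genes and were chosen as ligands of the receptors after their values were seen. Gcg is also on the alpha cell marker list, which had 4 higher and 3 lower means in weaned mice (median 0.069). Sst is on the delta cell list, which had 4 higher and 4 lower (median -0.019). Nts and Grp, the ligand genes with the smallest p, were at background in both groups.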

How the data were processed

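Per the labels' protocols, total RNA of the sorted cells of each mouse was extracted on micro columns and amplified (Ovation Pico System V2). The deposited intensity values, 1 per probe set and array on a linear scale (1.45 to 12755, array medians 14.1 to 14.9), are the authors' own; the submitters' processing notes name RMA and Partek 6.6 and give no settings. RMA borrows between arrays and compresses dim differences. Here log2 was taken, 21789 of 35556 probe sets had a single symbol in the platform annotation (21698 matched by gene ID to RefSeq, GRCm38.p6, for current names), and the probe set with the highest mean stood for each of 19938 genes. No filter was applied.

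Weaned and suckling arrays were compared with limma 3.58.1 in R 4.3.3 (lmFit, eBayes, two-sided, no covariate) and p-values were adjusted by Benjamini-Hochberg over all genes, with a threshold of 0.05. The fit was run on simulated data with independent normal noise, and its mean estimates matched the differences put in. That check held no acinar or batch pattern. No test was made over a list. The number of arrays limits the precision, with SE of 0.11 to 0.18 for the receptors and a median of 0.14 over all genes.

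The receptors, lists and alternatives were chosen with earlier results of these data known. Named were all receptors, the 2 genes with the smallest p in each of 8 lists, and the 3 genes closest to Glp1r and to Gipr in pattern. The 95th percentile of the olfactory receptor genes as the background cutoff was chosen after the data were seen. The alternatives were a variance trend, quantile normalization, centring, 2 filters on level, 2 treatments of probe sets, array weights, an offset of 16, 3 covariates (acinar, other islet cell, Y-linked, the last low on weaned replicate 12, which was low for Xist too), and arrays left out. Per-sample columns left out numbered 0.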

Additional observations from a re-analysis of the deposited data

Results flagged for a closer look

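In the suckling group each receptor and named pathway gene, 25 in all, was checked for an array standing apart from the other 3, by the gap to its neighbour over the range of the group, and 2 exceeded the limit of 0.829, where chance exceeds it in about 1 in 20. Vipr1 was low on suckling replicate 9, at 5.00 log2 units against 5.19, 5.19 and 5.21 on the other suckling arrays (gap 0.920 of the range). Of these, suckling replicates 11 and 12 have identical deposited values. The dimmer Vipr1 probe set was also lowest on suckling replicate 9 in that group, at 4.33, but with 4.64, 4.88 and 4.92 on the others it was less apart. Gpr119 was high on suckling replicate 9, at 8.10 log2 units against 7.75, 7.76 and 7.79 (gap 0.880 of the range). Suckling replicate 9 is 1 of the 2 arrays rich in acinar RNA, whose part in these values was not tested.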

How the results depend on the processing

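Of 179 receptor differences over 20 alternatives, 173 kept their direction and 6 reversed, and none passed an adjusted p of 0.05 (lowest 0.552, Gipr, limma). Those reversed were Sstr3 with the acinar covariate (-0.033), without weaned replicate 5 (-0.089) and without suckling replicate 11 (-0.00071), and Chrm3 with the acinar covariate (-0.047), without suckling replicate 2 (-0.0081) and without suckling replicates 2 and 9 (-0.048). The variance trend, the level filters and the fit of every probe set on its own leave each difference as it was. No reversal was possible in those, and the mean of probe sets could change only Vipr1. The count of kept directions includes these repeats. With 1 array left out Sstr3 ran from -0.089 to 0.13 and Chrm3 from -0.0081 to 0.25. An unadjusted p under 0.05 was reached by Gipr in 4, Glp1r in 3 and Casr in 2 of the 20. That is 1 receptor with the variance trend, quantile normalization, centring, the offset or the other islet cell covariate, and 0 to 2 with 1 array left out. Of all 19938 genes, 1422 to 1637 reached it in the former settings and 1171 to 1552 with 1 array left out. With all arrays and no covariate it was 1512 genes, or 7.58%. The receptors' median of 0.14 was 0.055 with the acinar covariate, 0.025 without suckling replicates 2 and 9, and 0.069 to 0.19 with 1 array left out. Genes past the adjusted threshold, 3 as reported, numbered 9 with the variance trend, 5 with quantile normalization or the mean of probe sets, 7 and 8 with the level filters, 9 with every probe set on its own, 1 to 3 with 1 array left out (1 without weaned replicate 4 or 5 or suckling replicate 9, 11 or 12) and 0 without suckling replicates 2 and 9 (1089 at an unadjusted p under 0.05, limma). Genes at an unadjusted p under 0.05 numbered 1512 as reported and 908 with dimmer genes left out, where fewer were tested; that filter removed Adcyap1r1. No paired analysis was possible because the groups share 1 replicate number.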
